A study of Mus musculus with 12 samples.

Results

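The antiviral interferon-stimulated genes described here are 39 listed genes, matched by symbol to 39 of the 38215 genes in the count table, and none was left unmatched. They were followed in RAW264.7, an established line of mouse macrophages labelled as BALB/c, in which SF3a1, a core subunit of the splicing factor SF3a, was lowered with siRNA. Polyadenylated RNA was sequenced in 12 libraries that fell into 4 groups of 3. The cells had received either a nontargeting control siRNA or the SF3a1 siRNA, and each of these was followed with and without LPS, a bacterial cell wall component. All cells were nucleofected with siRNA, and 24 h later LPS was added at 20 ng/ml for 4 h or was not added. The series design calls the 3 samples of a group biological replicates, and the first of each group was sequenced in 2 runs that were combined. The cells were 1 established tumour line, the knockdown was partial, and 1 dose and 1 time of LPS were used. The gene counts summed to between 12746019 and 41091887 reads per library, and levels below 1 CPM rested on few reads.

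Interferon-stimulated genes are the effector arm of the type I interferon response. In macrophages LPS signals from TLR4 through the adaptor TRIF to the kinases TBK1 and IKKε and the transcription factor IRF3, which turns on the gene for interferon β. Secreted interferon binds its receptor IFNAR on the same and neighbouring cells, and the kinases JAK1 and TYK2 then trigger assembly of the complex ISGF3, which holds STAT2 and IRF9. ISGF3 binds the interferon-stimulated response element, a pair of GAAA-like repeats near the start of many of these genes. Their products block viral entry, replication, assembly or release, or feed back on the pathway itself.

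The response element was searched for as GAAA, any 2 bases and GAAA again on either strand, with overlapping matches joined, from 250 bases before to 50 bases after the start sites in the RefSeq promoter table (GRCm38.p6). Of the 30 members with a promoter in that table, 8 held the motif (26.7%, Wilson 95% interval 14.2 to 44.4%), against 1079 of all 27025 genes with a promoter (3.99%). The interval treats the members as independent draws, which a chosen list with paralogs such as Slfn8 and Slfn9 is not, and it is no test against all genes. Mx1, Mx2, Parp9, Parp10, Parp14, Rtp4, Tor3a, Ifi27l2a and Ly6e had no entry. The stretches around matches before the start site are shown for 7 members, because this element is the letters through which ISGF3 is known to bind. Each is written 5′ to 3′ along the gene's strand with the match in capitals, and matches that begin with TTTC lie on the opposite strand.
Isg15, chr4:156200860-156200911, minus strand: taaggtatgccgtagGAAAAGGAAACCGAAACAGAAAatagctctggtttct
Bst2, chr8:71537572-71537617, minus strand: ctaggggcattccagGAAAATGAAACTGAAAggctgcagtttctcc
Rsad2, chr12:26456548-26456587, minus strand: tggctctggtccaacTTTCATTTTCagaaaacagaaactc
Slfn5, chr11:82951932-82951971, plus strand: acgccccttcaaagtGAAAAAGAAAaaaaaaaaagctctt
Slfn8, chr11:83020834-83020873, minus strand: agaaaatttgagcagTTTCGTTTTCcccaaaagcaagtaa
Slfn9, chr11:82991851-82991890, minus strand: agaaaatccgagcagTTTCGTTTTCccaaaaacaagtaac
Trim30a, chr7:104465205-104465244, minus strand: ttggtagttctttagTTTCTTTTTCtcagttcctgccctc
The Isg15 stretch held 3 overlapping matches, from 78 to 57 bases before the start, and the Bst2 stretch held 2, from 130 to 115 bases before it. In Slfn8 and Slfn9, neighbouring paralogs on chromosome 11, the match began 48 and 45 bases before the start. With the last A left out of the search, 11 members held a match (36.7%, against 9.76% of all genes). A match is a string of letters, and binding of ISGF3 was not measured.

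The knockdown was checked first. Sf3a1 was at 173, 216 and 185 CPM (gene counts relative to library size, TMM scaled) in the 3 libraries with control siRNA and at 150, 194 and 157 CPM with control siRNA and LPS. It was at 27.1, 27.5 and 32.1 CPM with SF3a1 siRNA and at 30.3, 26.7 and 45 CPM with SF3a1 siRNA and LPS. Every SF3a1 siRNA library thus lay below every control siRNA library. In edgeR's quasi-likelihood test, adjusted over 14983 genes by the method of Benjamini and Hochberg, the log2 fold change was -2.73 ± 0.20 (SE, adjusted p = 1.14e-05) without LPS and -2.30 ± 0.20 (adjusted p = 1.47e-05) with LPS. The SF3a1 siRNA libraries therefore kept 15.1% and 20.4% of the control level.

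The libraries were also checked against markers of the labelled cell type. All 10 macrophage markers had counts in every library, with a summed level between 10500 and 17500 CPM that was led by Lyz2, the gene for lysozyme M. Of these 10, 3 were lower with SF3a1 siRNA and LPS and 2 were higher. Fcgr1, an Fc receptor gene, moved with the members: with LPS it was at 565, 382 and 421 CPM with control siRNA and at 52.5, 39.8 and 56.1 CPM with SF3a1 siRNA (log2 -3.20, adjusted p = 6.14e-06, edgeR's quasi-likelihood test). Mpeg1, a gene for a pore-forming protein, was at 958, 632 and 684 CPM and at 286, 304 and 338 CPM in the same groups (log2 -1.30, adjusted p = 6.62e-04 in edgeR's quasi-likelihood test). Csf1r, the receptor gene for macrophage colony-stimulating factor, moved the other way, from 1520, 1460 and 1290 CPM to 2490, 1970 and 2410 CPM (log2 0.69, adjusted p = 0.00248, edgeR's quasi-likelihood test). These 3 marker genes were named after their values were seen, and their part in the results was not tested. The 5 T cell markers summed to 1.81 to 13.8 CPM, nearly all of it the kinase gene Lck, and Cd8a had 0 counts in every library. B cell, fibroblast and epithelial markers summed to at most 0.763, 0.342 and 0.211 CPM. The 4 markers of plasmacytoid dendritic cells, the main interferon producers of blood, summed to 54.9 to 124 CPM, nearly all of it Tcf4, which did not pass in any comparison, while Il3ra was at or near 0 counts. Siglech was at 0.848, 0.581 and 1.11 CPM with control siRNA and fell with LPS to 0.0795 to 0.112 CPM (log2 -3.00, adjusted p = 5.87e-04, edgeR's quasi-likelihood test), opposite to the members. Ccr9, a chemokine receptor gene of that list, moved with the members: it had 0 counts with control siRNA, 1.87, 3.58 and 4.32 CPM after LPS, and 0.575, 0.605 and 0.818 CPM with SF3a1 siRNA and LPS (log2 -2.27 against control siRNA, adjusted p = 0.00376 in edgeR's quasi-likelihood test), and the part of such cells in the results was not tested. In such bulk RNA, fewer responding cells and less RNA per responding cell cannot be told apart.

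Before any LPS, the 39 genes together took 2169, 2694 and 2452 CPM with control siRNA and 2682, 3196 and 2845 CPM with SF3a1 siRNA. The median member was not higher with SF3a1 siRNA, at 20.1, 22.8 and 20.7 CPM and at 16.6, 19.5 and 20.2 CPM. Abundant members weighed on the sum. Ly6e had means of 922 CPM with control and 1130 CPM with SF3a1 siRNA, and Trim25 had 272 and 520 CPM. After LPS the sum was 20580, 20590 and 21350 CPM with control siRNA and 9206, 7311 and 8714 CPM with SF3a1 siRNA. The 4 groups fell into 3 levels, with the LPS libraries of SF3a1 siRNA between those without LPS and those of control siRNA with LPS. As a share of all scaled counts the members rose from 0.217 to 0.269% to between 2.06 and 2.13% with control siRNA, and reached 0.731 to 0.921% with SF3a1 siRNA.

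**Figure D1:**
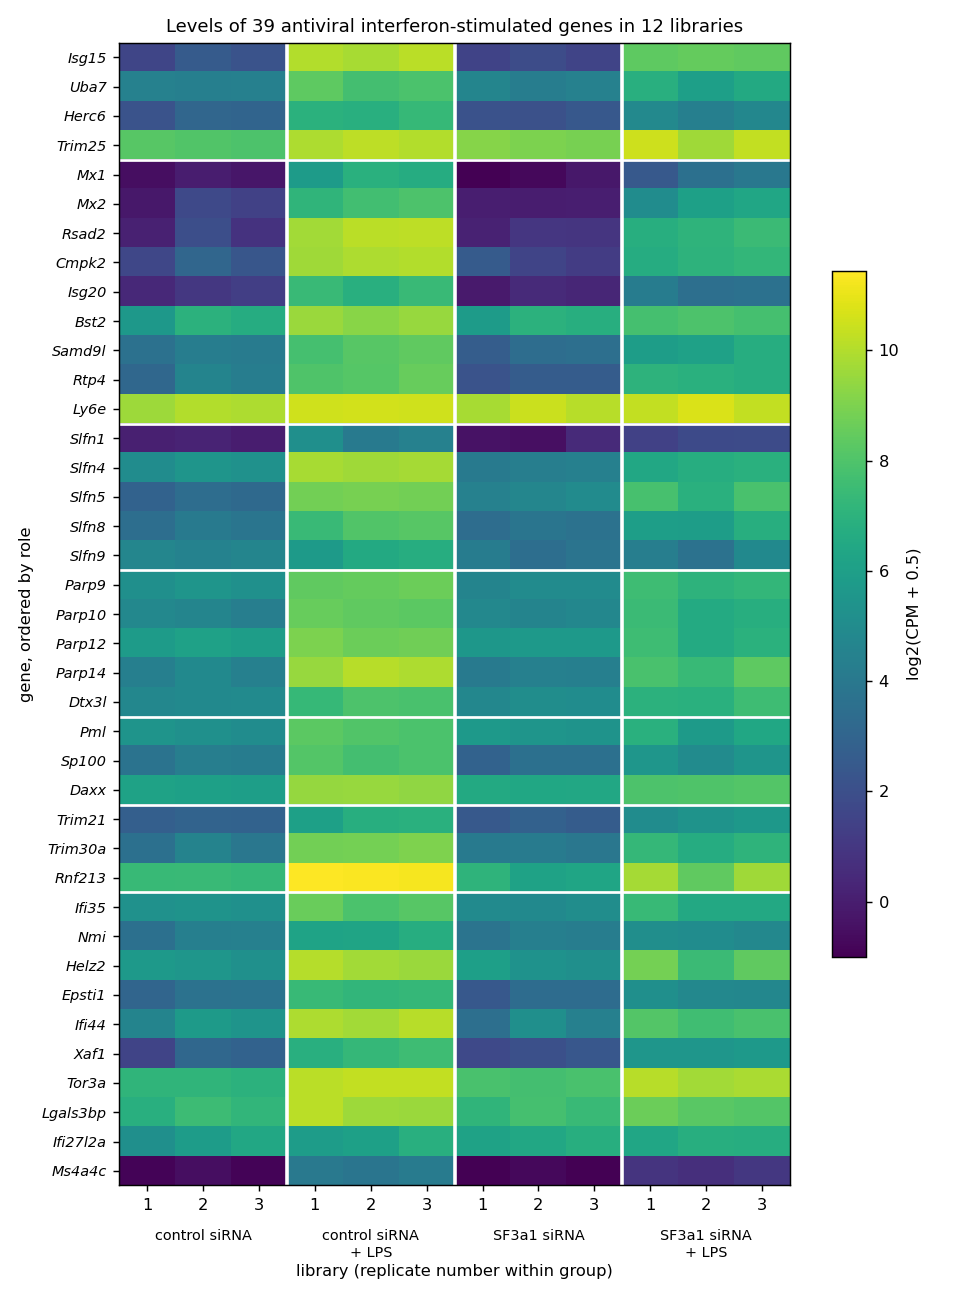
Level of each of the 39 genes (rows, ordered by role) in each of the 12 libraries (columns), on a log2(CPM + 0.5) colour scale. The columns of control siRNA with LPS are the brightest for most genes, those of SF3a1 siRNA with LPS are intermediate, and Ly6e and Ifi27l2a differ less between columns than most.

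The first comparison asked how the genes respond to LPS with control siRNA. Of the 39 members, 38 rose and 0 fell at an adjusted p of at most 0.1, beside 13.8% of all 14983 tested genes that rose and 18.3% that fell. The median log2 fold change was 4.00, against -0.02 over all genes tested, and the members ranged from 0.40 to 9.28. In 38 members all 3 LPS libraries lay above all 3 libraries without LPS, as they did in 17.2% of all genes, and in 0 they lay below (23% of all genes). The exception was Ifi27l2a, which encodes a small interferon-inducible membrane protein, at 35.9, 57.2 and 87.9 CPM without LPS and 58.4, 66.8 and 114 CPM with it (log2 0.40, adjusted p = 0.416 in edgeR's quasi-likelihood test). It passed the threshold without replicate 3 of control siRNA and with a block for the replicate number.

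The second comparison asked what SF3a1 siRNA does to the genes without LPS. Of the members, 4 rose and 10 fell, beside 13.7% of all genes that rose and 20.1% that fell, so that the shares of 10.3% and 25.6% lay near the background. The median log2 fold change was -0.32. In 4 members all SF3a1 siRNA libraries lay above the control siRNA libraries (20.2% of all genes), and in 9 they lay below (25.4% of all genes). The 4 that rose were Slfn5, Trim25, Tor3a and Daxx. Calls of a fall depended on single libraries: without replicate 2 of control siRNA 2 members fell, without replicate 3 of it 2 fell, and without replicate 1 of SF3a1 siRNA 5 fell. With each of the 12 libraries left out in turn 6 of the 14 calls were kept every time, those of the 4 genes that rose and of Rtp4 and Slfn4. With a block for the replicate number Ifi27l2a and Ly6e also passed as higher and Ifi44 and Isg15 as lower. In that fit 6 members were higher and 12 lower, beside 20.7% and 26.3% of all genes. That replicate 1 also had 27.2% of its reads outside annotated genes, the highest share of the 12 libraries.

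The third comparison, SF3a1 against control siRNA in the presence of LPS, gave a fall in nearly all members. Of the 39 members, 36 fell and 0 rose, beside 20.4% of all genes that fell and 18.4% that rose. The median log2 fold change was -1.67, which left 31.4% of the control siRNA level, against -0.04 over all genes tested. In 35 members all 3 SF3a1 siRNA libraries lay below all 3 control siRNA libraries (21.1% of all genes), and in 0 they lay above (18% of all genes). By mean CPM, 10 members kept less than 20% of the control level, 24 kept between 20 and 50%, and 5 kept 50% or more. The 3 that did not pass the test were Ly6e, Trim25 and Ifi27l2a, with log2 fold changes of -0.09, 0.15 and 0.32. With the replicate block, Ifi27l2a passed as higher with SF3a1 siRNA. Of the 36 calls, 34 were kept whichever of the 12 libraries was left out, and those of Dtx3l and Tor3a were not.

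The genes nevertheless responded to LPS after SF3a1 siRNA. In those cells 36 members rose and 0 fell with LPS, beside 6.6% of all genes that rose and 4.06% that fell, and the median log2 fold change was 2.60 with a range of 0.15 to 7.03. In 36 members the LPS libraries lay above those without LPS (13.3% of all genes), and in 0 they lay below (11.5% of all genes). Ly6e, Ifi27l2a and Slfn9 did not pass, with log2 fold changes of 0.31, 0.15 and 0.52. Leaving out 1 library kept 32 of the 36 calls every time. Those of Bst2, Lgals3bp and Nmi were lost without replicate 1 of SF3a1 siRNA, that of Pml without its replicate 2, and all 4 also without 1 or more others (adjusted p of at most 0.181). Across the 39 members the LPS effects with control and with SF3a1 siRNA, which share no library, had a Spearman correlation of 0.94, so the genes kept nearly the same order of response at a lower level.

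**Figure D2:**
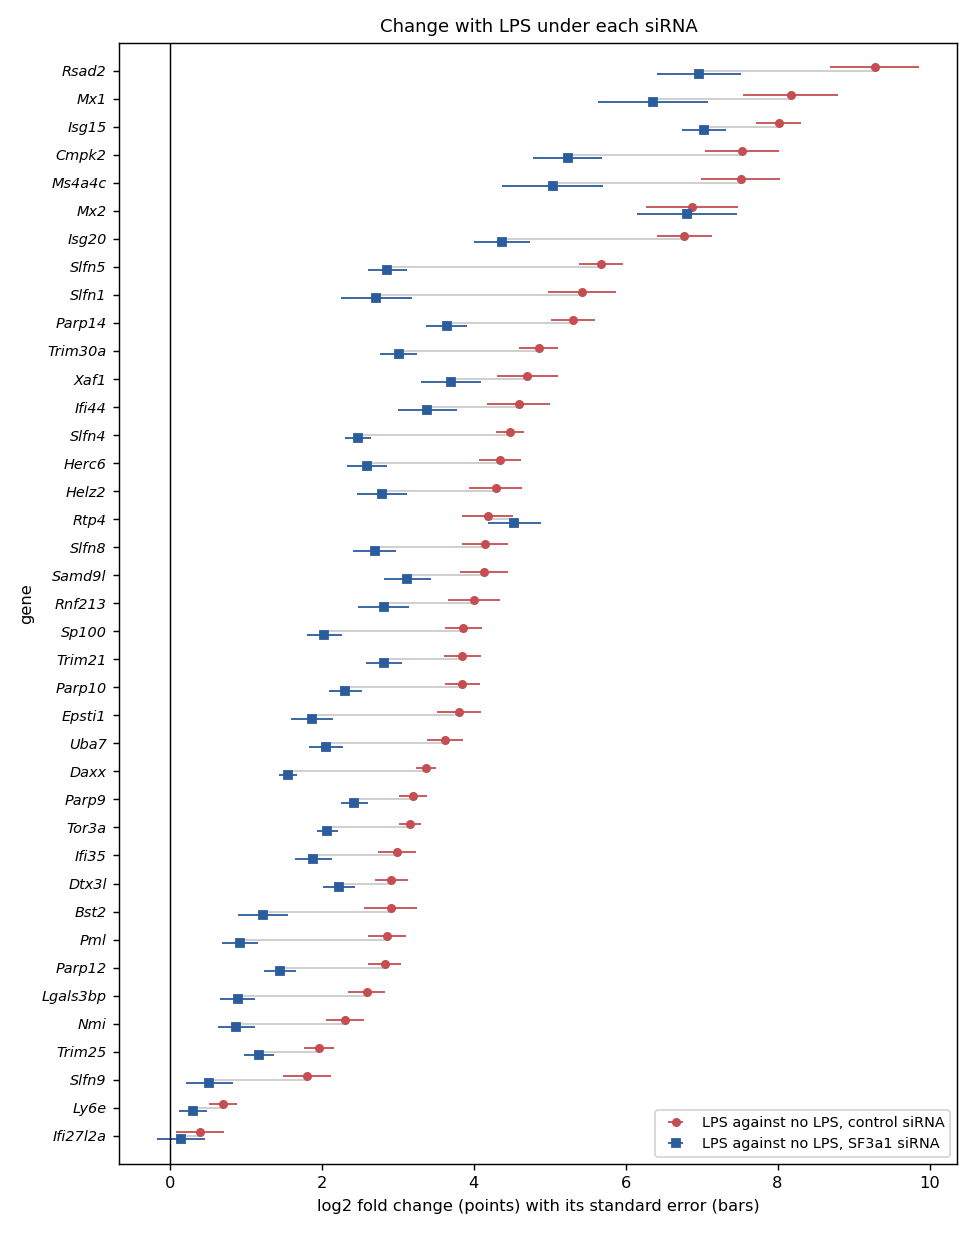
Log2 fold change with LPS for the 39 genes (rows), with control siRNA (red circles) and with SF3a1 siRNA (blue squares), and bars for its standard error. The blue squares lie left of the red circles in every gene but Rtp4, and all points lie to the right of 0.

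The difference between the LPS effects was tested as the interaction of SF3a1 siRNA and LPS. The LPS effect was smaller with SF3a1 siRNA in 20 members and larger in 0, beside 1.94% of all genes in which it was smaller and 1.54% in which it was larger. The median difference was -1.50 on the log2 scale, against 0.04 over all genes tested. With the replicate block 31 members passed, all as smaller effects, beside 5.18% of all genes with a smaller and 6.54% with a larger effect in that fit. The 11 that it added were Dtx3l, Helz2, Ifi35, Isg15, Parp9, Rnf213, Rsad2, Samd9l, Slfn9, Trim21 and Trim25. The smallest adjusted p in edgeR's quasi-likelihood test were those of Daxx, Slfn4, Slfn5, Pml, Tor3a and Trim30a, and these 6 were among the 14 that passed with each of the 12 libraries left out in turn. The calls of Bst2 and Slfn8 were lost in 9 and 8 of those 12 fits, and those of Nmi, Cmpk2, Slfn1 and Isg20 in 4, 4, 3 and 1.

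The antiviral effectors that act on viral entry, genomes or release had the highest median response to LPS of the role groups. All 9 rose with LPS and control siRNA, with a median log2 fold change of 6.77, and 8 of the 9 were lower with SF3a1 siRNA and LPS (median -1.84). Rsad2, which encodes viperin, an enzyme that makes a chain-terminating nucleotide, was at 0.596, 3.49 and 1.28 CPM with control siRNA and at 845, 1130 and 1190 CPM after LPS. With SF3a1 siRNA it was at 0.656, 1.45 and 1.41 CPM and reached 110 to 176 CPM after LPS. The groups with LPS did not overlap, and those without LPS did. Its LPS effect was the largest of the list, at a log2 fold change of 9.28 ± 0.59, and ran from 8.82 to 10.21 with 1 library left out. The SF3a1 effect on Rsad2 with LPS was -2.90 ± 0.43 (adjusted p = 3.58e-04, edgeR's quasi-likelihood test). Cmpk2, a mitochondrial nucleotide kinase gene that lies beside Rsad2 on chromosome 12, was at 2.68, 8.22 and 4.47 CPM with control siRNA and 807, 975 and 1030 CPM after LPS. It was at 5.47, 2.45 and 1.79 CPM with SF3a1 siRNA and at 104, 129 and 148 CPM after LPS. All 3 of these LPS libraries again lay far below those of control siRNA, and the SF3a1 effect with LPS was -2.88 ± 0.39 on the log2 scale. Its interaction of -2.30 passed in the full fit (adjusted p = 0.0556 in edgeR's quasi-likelihood test) and not without replicate 3 of control siRNA, replicates 2 or 3 of control siRNA with LPS, or replicate 1 of SF3a1 siRNA (adjusted p of at most 0.166).

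The 2 Mx genes encode dynamin-like GTPases that trap viral nucleocapsids, and both were at under 3 CPM without LPS. Mx1 was at 0.183, 0.491 and 0.341 CPM with control siRNA and 55.8, 119 and 102 CPM after LPS. With SF3a1 siRNA it was at 0, 0.111 and 0.372 CPM and at 5.12, 11.5 and 15.3 CPM after LPS. The groups with LPS did not overlap, and SF3a1 siRNA left 11.5% of the control mean (log2 -3.13 ± 0.46, adjusted p = 3.55e-04, edgeR's quasi-likelihood test). Its interaction of -1.81 ± 1.29, on a base of 27 and 7 counts without LPS, did not pass (adjusted p = 0.664, edgeR's quasi-likelihood test). With 1 library left out this interaction ran from -2.66 to -0.44 and never passed. Mx2 was at 0.367, 2.81 and 2.13 CPM with control siRNA, 138, 202 and 248 CPM after LPS, 0.547, 0.502 and 0.521 CPM with SF3a1 siRNA, and 32.7, 65.8 and 80.4 CPM with SF3a1 siRNA and LPS. It was lower with SF3a1 siRNA by a like amount without LPS (log2 -1.66, adjusted p = 0.0988) and with LPS (-1.72, adjusted p = 0.0138), and its LPS effects were 6.87 with control and 6.81 with SF3a1 siRNA (interaction -0.06 ± 0.998, adjusted p = 0.996, edgeR's quasi-likelihood test). The call without LPS was lost in 10 of the 12 fits that left out 1 library, all but those without replicate 1 of control siRNA or replicate 1 of SF3a1 siRNA with LPS, and the groups overlapped there. Many laboratory mouse strains carry an Mx1 gene with a large deletion, and whether these cells do was not analysed here.

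Rtp4, which encodes a chaperone of receptor transport that also restricts flaviviruses, was the member with the largest fall without LPS. It was at 8.34, 23.8 and 18.8 CPM with control siRNA and at 4.05, 5.74 and 5.73 CPM with SF3a1 siRNA. After LPS it was at 261, 289 and 372 CPM with control siRNA and at 131, 118 and 108 CPM with SF3a1 siRNA. Neither pair of groups overlapped, and the log2 fold changes were -1.72 ± 0.32 without LPS (adjusted p = 0.00179) and -1.37 ± 0.30 with LPS (adjusted p = 0.00391) in edgeR's quasi-likelihood test. Rtp4 was the 1 member with an interaction above 0, at 0.35 (adjusted p = 0.873). Isg20, an exonuclease gene whose product degrades viral RNA, was at 0.848, 1.52 and 1.96 CPM with control siRNA and 174, 113 and 173 CPM after LPS. With SF3a1 siRNA it was at 0.438, 0.892 and 0.744 CPM and at 18.0, 11.2 and 12 CPM after LPS. Only the groups with LPS were fully apart, by a log2 fold change of -3.47 ± 0.30 that left 9.02% of the control mean (adjusted p = 1.48e-05, edgeR's quasi-likelihood test). Its fall without LPS (log2 -1.07, adjusted p = 0.0703) was lost without replicates 2 or 3 of control siRNA or replicates 1 or 3 of SF3a1 siRNA (adjusted p of at most 0.283), and its interaction of -2.40 without replicate 2 of SF3a1 siRNA (adjusted p = 0.135, edgeR's quasi-likelihood test).

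Bst2 encodes tetherin, which holds budding virions on the cell surface, and it had the second highest level per kilobase after LPS with control siRNA, and the third with SF3a1 siRNA. It was at 49.2, 127 and 103 CPM with control siRNA, 749, 605 and 742 CPM after LPS, 56.0, 125 and 111 CPM with SF3a1 siRNA, and 217, 249 and 216 CPM with SF3a1 siRNA and LPS. The groups without LPS overlapped widely, and those with LPS were apart (log2 -1.62 ± 0.33). Per kilobase of exon, Bst2 was at 774 CPM after LPS with control siRNA and at 251 CPM with SF3a1 siRNA. Samd9l, a growth-restricting and antiviral gene with 1 intron in its longest coding transcript, was lower without and with LPS (log2 -0.83 and -1.84), the first call being lost without replicates 2 or 3 of control siRNA or replicate 1 of SF3a1 siRNA. Ly6e, a membrane-anchored protein gene that alters virus entry, was at 781 to 1030 CPM without LPS and 1470 to 1520 CPM with LPS in control siRNA cells, and at 907 to 1400 and 1240 to 1720 CPM in SF3a1 siRNA cells. It rose with LPS with control siRNA (log2 0.70, adjusted p = 0.0135) and did not pass in the SF3a1 siRNA comparisons, apart from a higher level without LPS once the block was fitted (adjusted p = 0.0812, against 0.270 without the block).

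ISG15 is a ubiquitin-like protein that is attached to newly made proteins, UBA7 is its activating enzyme, HERC6 the main ligase of mouse cells, and TRIM25 a ligase for ubiquitin and ISG15 that also acts on the RNA sensor RIG-I. Isg15 was at 2.48, 5.50 and 4.09 CPM with control siRNA, 1040, 910 and 1130 CPM after LPS, 2.37, 3.18 and 2.38 CPM with SF3a1 siRNA, and 331, 365 and 340 CPM with SF3a1 siRNA and LPS. The 4 groups were apart except for the pair without LPS. Per kilobase of exon it was the most abundant member after LPS, at 1360 CPM with control siRNA and 457 CPM with SF3a1 siRNA. Its log2 fold change with SF3a1 siRNA and LPS was -1.57 ± 0.22 (adjusted p = 2.49e-04, edgeR's quasi-likelihood test), and the interaction of -0.99 had an adjusted p of 0.181, or 0.0514 with the block. Uba7 and Herc6 were lower with SF3a1 siRNA and LPS (log2 -1.51 and -2.40), and both had smaller LPS effects by the interaction. Trim25 took the other course. It was at 299, 265 and 252 CPM with control siRNA and 577, 502 and 480 CPM with SF3a1 siRNA, and after LPS it was at 960, 1190 and 1030 CPM and at 1460, 807 and 1250 CPM. The groups without LPS were apart and those with LPS overlapped (log2 0.93 ± 0.19, adjusted p = 0.0036, and 0.15 ± 0.19, adjusted p = 0.627, in edgeR's quasi-likelihood test).

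The Schlafen genes encode a family that restrains growth and virus translation, and the 5 members lie in a cluster on chromosome 11. All 5 rose with LPS and control siRNA, 4 of them also with LPS and SF3a1 siRNA, and all 5 were lower with SF3a1 siRNA and LPS (median log2 -2.06), and 4 of the 5 had a smaller LPS effect by the interaction. Slfn5 was at 6.97, 10.5 and 9.16 CPM with control siRNA and 21.7, 25.8 and 31.5 CPM with SF3a1 siRNA. After LPS it was at 445, 466 and 444 CPM with control siRNA and 227, 117 and 229 CPM with SF3a1 siRNA. It was thus higher with SF3a1 siRNA in every library without LPS and lower in every library with LPS, by log2 fold changes of 1.57 ± 0.25 and -1.24 ± 0.24, and its interaction of -2.81 ± 0.35 was the most negative of the list (adjusted p = 0.00245, edgeR's quasi-likelihood test). Slfn4 was at 32.7, 44.6 and 39 CPM with control siRNA, 909, 813 and 878 CPM after LPS, 16.4, 19.5 and 20.6 CPM with SF3a1 siRNA, and 86.4, 108 and 120 CPM with SF3a1 siRNA and LPS. It was lower in every SF3a1 siRNA library than in every control library of the same LPS state, by log2 fold changes of -1.04 ± 0.17 and -3.05 ± 0.17. Slfn1, with 1 intron, was at 0.550, 0.670 and 0.511 CPM with control siRNA and 36.1, 16.9 and 21.5 CPM after LPS, and at 0.255, 0.223 and 0.893 CPM and 2.18, 3.02 and 3.13 CPM with SF3a1 siRNA. With LPS the groups were apart and 11.2% of the control mean was left. Its interaction of -2.71 was lost without replicates 1 or 3 of control siRNA or replicate 3 of SF3a1 siRNA (adjusted p of at most 0.194, edgeR's quasi-likelihood test). Slfn8 and Slfn9 are close paralogs, so that the share of their reads mapping uniquely is uncertain. Slfn5 shares exon sequence with the antisense gene Slfn5os, and the strand setting of the counting is not given in the sources used here.

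The PARP genes encode enzymes that attach ADP-ribose, and Dtx3l encodes the ubiquitin ligase that pairs with PARP9. All 5 of these genes rose with LPS and control siRNA (log2 2.83 to 5.31) and all 5 fell with SF3a1 siRNA and LPS (-0.56 to -1.94), with the largest changes in both in Parp14. Dtx3l fell least, and its call was lost without replicates 2 or 3 of control siRNA with LPS or replicates 1 or 2 of SF3a1 siRNA with LPS (adjusted p of at most 0.196). Parp9 and Dtx3l overlap at their ends on opposite strands, and their shared reads could not be assigned to 1 of them here. Pml, Sp100 and Daxx encode proteins of nuclear bodies that silence viral DNA. All 3 rose with LPS, fell with SF3a1 siRNA and LPS, and had a smaller LPS effect with SF3a1 siRNA, with interactions between -1.93 and -1.82. Daxx, a histone chaperone, was at 72.4, 66.4 and 61.3 CPM with control siRNA, 702, 720 and 653 CPM after LPS, 94.0, 83.2 and 88.0 CPM with SF3a1 siRNA, and 250, 258 and 273 CPM with SF3a1 siRNA and LPS. All 4 groups were apart, with SF3a1 siRNA higher without LPS (log2 0.41 ± 0.12, adjusted p = 0.024) and lower with LPS (-1.41 ± 0.12, adjusted p = 1.32e-05) in edgeR's quasi-likelihood test. The interaction of Daxx had the smallest adjusted p of the list (-1.82 ± 0.17, adjusted p = 4.23e-04, edgeR's quasi-likelihood test). Pml, the scaffold of the bodies, was at 43.0, 37.7 and 32.3 CPM with control siRNA, 317, 265 and 238 CPM after LPS, 50.9, 43.8 and 40.7 CPM with SF3a1 siRNA, and 118, 55.1 and 83.9 CPM with SF3a1 siRNA and LPS. Its groups overlapped without LPS and were apart with it.

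Among the other ligases, Trim21 is the cytosolic antibody receptor, Trim30a a mouse regulator of TLR signalling and Rnf213 a very large enzyme that coats intracellular bacteria with ubiquitin. All 3 rose with LPS and fell with SF3a1 siRNA and LPS. Trim30a was at 11.6, 22.8 and 15 CPM with control siRNA, 449, 457 and 524 CPM after LPS, 16.6, 17.3 and 14.7 CPM with SF3a1 siRNA, and 156, 103 and 134 CPM with SF3a1 siRNA and LPS. Its levels without LPS overlapped fully (log2 -0.02, adjusted p = 0.965), and those with LPS were apart (-1.86, adjusted p = 1.07e-04) in edgeR's quasi-likelihood test. Trim30a is 1 of several near-identical neighbours, which makes its unique counts uncertain. Tor3a, an interferon-responsive torsin ATPase gene, was at 141, 142 and 125 CPM with control siRNA and 236, 209 and 230 CPM with SF3a1 siRNA, and after LPS at 1150, 1250 and 1260 CPM and at 1090, 832 and 923 CPM. Neither pair of groups overlapped. It was higher with SF3a1 siRNA without LPS (log2 0.72 ± 0.13) and lower with LPS (-0.37 ± 0.13, adjusted p = 0.0519 in edgeR's quasi-likelihood test), and the fall was lost without replicates 2 or 3 of either LPS group (adjusted p of at most 0.151). Ms4a4c, a tetraspan membrane protein gene, had the lowest level per kilobase, at 0.0459, 0.179 and 0.0426 CPM with control siRNA and 15.6, 13.9 and 17.4 CPM after LPS. It was at 0, 0.111 and 0 CPM with SF3a1 siRNA and at 1.30, 1.09 and 1.49 CPM after LPS. Its 3 libraries held 7 counts with control siRNA and 2 with SF3a1 siRNA, so that its LPS effects have no firm base level. Its fall with LPS, from 1079 to 92 counts and to 8.22% of the control mean, was the largest of the list (log2 -3.59 ± 0.39, adjusted p = 5.78e-05, edgeR's quasi-likelihood test). The remaining 8 members were Ifi35 and Nmi, whose products bind each other and modulate interferon signalling, the helicase gene Helz2, Xaf1, which encodes a partner of the apoptosis inhibitor XIAP, Lgals3bp, which encodes a secreted galectin-binding glycoprotein, Epsti1, Ifi44 and Ifi27l2a. Their SF3a1 effects with LPS ranged from -2.36 to 0.32, and Ifi27l2a was the 1 of them that did not pass.

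**Figure D3:**
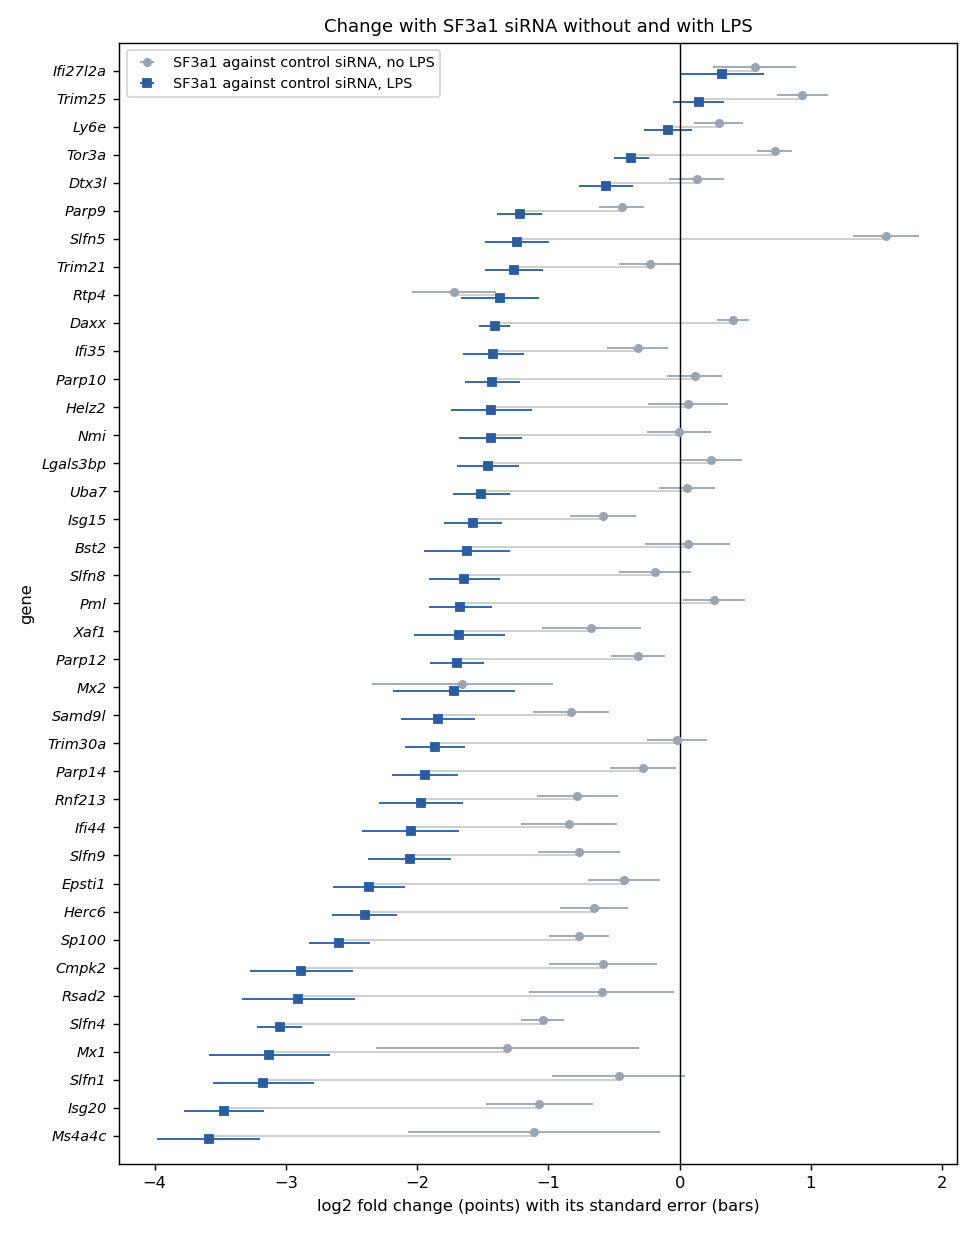
Log2 fold change of SF3a1 against control siRNA for the 39 genes (rows), without LPS (grey circles) and with LPS (blue squares), and bars for its standard error. The grey circles scatter around -0.32 on both sides of 0, while the blue squares lie below 0 in all genes but Trim25 and Ifi27l2a, and Mx2 is nearly the same in both.

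The SF3a1 effect with LPS was also set beside the structure of the genes. Across the 39 members its Spearman correlation was -0.09 with the number of introns of the longest coding transcript, -0.24 with the span of the gene and -0.06 with its exonic length. The 6 members with 1 to 3 introns had a median log2 fold change of -1.71, and the 12 members with at least 10 introns had -1.83. The SF3a1 effects without and with LPS, which share no library, had a Spearman correlation of 0.72 across the members. The 8 members with the response element in the promoter had a median SF3a1 effect with LPS of -1.63, and the 22 without it -1.77.

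Exon usage was examined in the 36 members that had a counting unit of their own, with 490 exon bins, the non-overlapping pieces into which the exons of a gene are divided. Of the 28 members whose bins could be placed, 7 had tested bins annotated as retained introns, 20 in all. Retention of introns outside the annotation could not be seen. Members with few counts without LPS, such as Mx1 with 27 and 7, left little to test there. Exon counts were used from 11 libraries, and those of replicate 3 of LPS-treated control siRNA cells were not analysed here. In edgeR's exon usage test 2 members had a bin past an adjusted p of 0.1 with SF3a1 siRNA without LPS (6.16% of all genes) and 1 with SF3a1 siRNA and LPS (5.03% of all genes). With LPS, 2 members had one with control siRNA (0.462% of all genes) and 1 with SF3a1 siRNA (0.104% of all genes). With the replicate block, whose shares over all genes are not given here, the 4 counts were 3, 3, 2 and 2. Without 1 library they lay between 1 and 3, 0 and 2, 1 and 2, and at 1, and the 1 member with SF3a1 siRNA and LPS, Ly6e, was lost without replicates 2 or 3 of control siRNA, replicates 1 or 2 of control siRNA with LPS, replicate 3 of SF3a1 siRNA or replicates 2 or 3 of SF3a1 siRNA with LPS. At an unadjusted p below 0.05, 19 of the 490 member bins (3.88%) differed with SF3a1 siRNA without LPS, beside 3.39% of all bins, and 16 (3.27%) with SF3a1 siRNA and LPS, beside 3.99%. With LPS, 10 bins (2.04%) differed with control siRNA, beside 1.97% of all bins, and 10 (2.04%) with SF3a1 siRNA, beside 1.29%. The other 3 members shared a counting unit with other genes. With SF3a1 siRNA and LPS, 11 of 61 bins of the Parp10 unit passed an adjusted p of 0.1 (0.492% of all bins). So did 7 of 84 in the Uba7 unit and 0 of 37 in the Sp100 unit, and without LPS 0 passed in each. These bins were not assigned to the members.

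Slfn4 changed in usage with SF3a1 siRNA without LPS, on few counts. Its bin 3 of 11 (chr11:83175563-83175644, mm10, exonic) took 2.77, 2.50 and 2.34% of all Slfn4 bin counts under control siRNA and 9.23, 9.27 and 6.69% with SF3a1 siRNA. These shares rested on 45, 27 and 24 counts and on 50, 38 and 21 counts. With LPS it held 3.03 and 3.27% with control siRNA and 6.82, 8.70 and 5.54% with SF3a1 siRNA. The share was higher in every SF3a1 siRNA library than in any control siRNA library. The log2 change in usage without LPS was 1.73 (adjusted p = 0.0042, edgeR's exon usage test) and passed with each of the 11 libraries left out. With LPS it was 1.16 (adjusted p = 0.221, and 0.00235 with the replicate block). Bin 2 (chr11:83175194-83175393), at the 5′ end of the gene, held 4.62, 3.42 and 3.71% with control siRNA and 14.0, 7.80 and 8.28% with SF3a1 siRNA, a log2 change of 1.35 (adjusted p = 0.0429, edgeR's exon usage test) that was lost without replicates 2 or 3 of control siRNA or replicate 1 of SF3a1 siRNA and by limma. These shares of bin 2 rested on 75, 37 and 38 counts and on 76, 32 and 26 counts. With LPS bin 2 did not pass (log2 1.08, adjusted p = 0.313, and 0.00698 with the replicate block, edgeR's exon usage test). The total of Slfn4 was lower with SF3a1 siRNA, and bins 2 and 3 made up more of it.

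In Daxx, bin 9 of 28 was used more with LPS. It held 14, 7 and 11 counts with control siRNA and 1052 and 568 counts with control siRNA and LPS, or 0.322, 0.357 and 0.540% of the gene's bin counts and 2.83 and 4.80%. With SF3a1 siRNA it held 0, 2 and 1 counts, and with SF3a1 siRNA and LPS 140, 126 and 246 counts (1.23, 2.22 and 3.24%). The LPS libraries were above the others in both siRNA groups, with log2 changes in usage of 3.24 (adjusted p = 2.45e-10) and 5.59 (adjusted p = 5.59e-16). The lower share with SF3a1 siRNA without LPS (-3.11, adjusted p = 0.00837) was lost without replicate 1 of SF3a1 siRNA (adjusted p = 0.493). With LPS it was -0.76 (adjusted p = 1, and 0.00271 with the replicate block). The bins of Daxx differed in number from the annotation used here, so this bin has no position. In Ly6e, bin 2 (chr15:74955071-74955335) passed with LPS and control siRNA (log2 2.19, adjusted p = 0.0767) and with SF3a1 siRNA and LPS (-1.84, adjusted p = 0.0829), each call lost in 7 of 11 fits that left out 1 library and by limma, and it held under 0.4% of the gene's counts in every library.

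**Figure D4:**
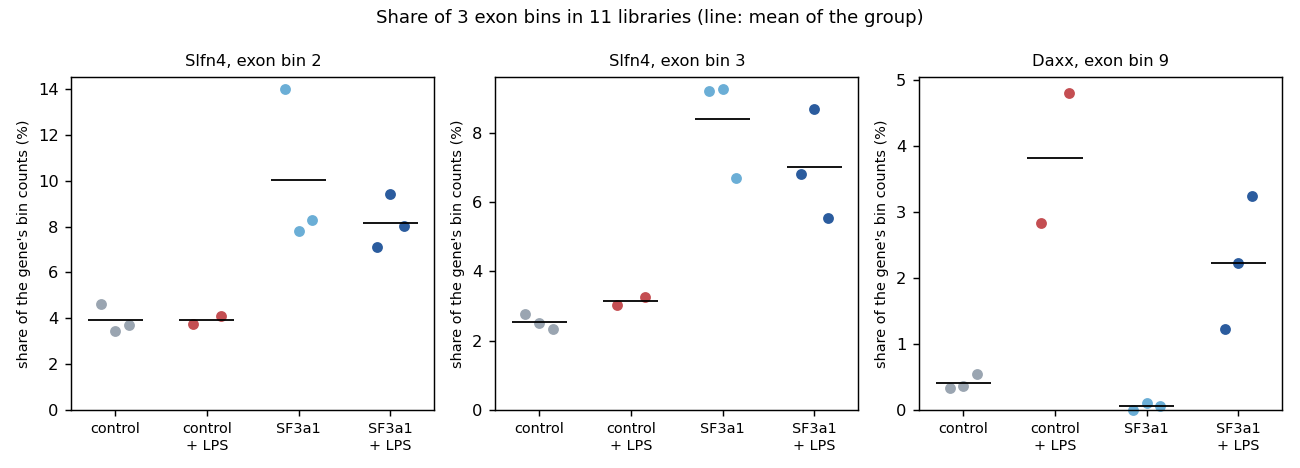
Share of the gene's exon bin counts (%) held by bins 2 and 3 of Slfn4 and bin 9 of Daxx, with a point for each of the 11 libraries and a line at the group mean. The SF3a1 siRNA points lie above the control siRNA points in both Slfn4 panels, and the LPS points lie above those without LPS in the Daxx panel.

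The genes upstream of the members were followed with a list of 22 genes of the interferon pathway. With LPS and control siRNA 13 rose and 3 fell, beside 13.8% and 18.3% of all genes. With SF3a1 siRNA without LPS 9 were lower and 2 higher, with a median log2 fold change of -0.38, beside 20.1% of all genes lower and 13.7% higher. Traf3 and Ticam1 also passed as higher with the replicate block (adjusted p = 0.0358 and 0.0806, edgeR's quasi-likelihood test), a fit in which 20.7% of all genes were higher. The 9 lower calls became 5 without replicate 1 or replicate 2 of control siRNA, 6 without its replicate 3 or replicate 1 of SF3a1 siRNA, and 4 without replicate 2 or replicate 3 of SF3a1 siRNA. With SF3a1 siRNA and LPS 13 were lower and 2 higher, beside 20.4% and 18.4% of all genes, with a median log2 fold change of -0.72. In the interaction 5 LPS effects were smaller and 1 was larger, beside 1.94% and 1.54% of all genes. With the replicate block the falls with LPS and control siRNA numbered 5 (25% of all genes in that fit) and those with SF3a1 siRNA and LPS 15 (26.3%). The interaction count of 6 became 12 with the replicate block, beside 5.18% of all genes with a smaller and 6.54% with a larger effect in that fit. It became 2 without replicate 3 of control siRNA, and 3 without replicate 2 or replicate 3 of SF3a1 siRNA. Ifnb1, the gene for interferon β, was at 0.0229, 0.0447 and 0 CPM with control siRNA and 4.92, 27.5 and 26.0 CPM after LPS. It was at 0 counts in the 3 libraries with SF3a1 siRNA and at 0.636, 5.02 and 3.66 CPM after LPS. Replicate 1 was the lowest with LPS under both siRNAs, and the groups overlapped by that library, although each SF3a1 siRNA library lay below the control siRNA library of the same number (log2 -2.67 ± 0.74, adjusted p = 0.0186, and 9.12e-06 with the replicate block, edgeR's quasi-likelihood test). Stat2 was at 442, 417 and 373 CPM with control siRNA and LPS and at 88.3, 73.8 and 107 CPM with SF3a1 siRNA and LPS (log2 -2.20 ± 0.15), so the groups were apart, and it was also lower without LPS (log2 -0.80, adjusted p = 0.00209, edgeR's quasi-likelihood test). Irf9, the DNA-binding subunit of ISGF3, was at 156, 152 and 152 CPM and at 144, 130 and 131 CPM, a log2 difference of -0.18 ± 0.15 that did not pass although the groups did not overlap (adjusted p = 0.403, edgeR's quasi-likelihood test). Without LPS Irf9 was at 31.6, 48.6 and 39.1 CPM with control siRNA and at 29.8, 31.4 and 27.3 CPM with SF3a1 siRNA, and was called lower (log2 -0.43, adjusted p = 0.0558, and 0.0286 with the replicate block, edgeR's quasi-likelihood test). That call was lost without replicates 2 or 3 of control siRNA or replicates 1 or 3 of SF3a1 siRNA. Irf9 also rose with LPS under both siRNAs (log2 1.95 and 2.19) with an interaction of 0.25 (adjusted p = 0.768). Irf7, which amplifies interferon production, was at 1740, 817 and 979 CPM and at 376, 135 and 141 CPM. Usp18, which removes ISG15 and damps the receptor, was at 1100, 1400 and 1520 CPM and at 366, 294 and 304 CPM. Both were lower with SF3a1 siRNA and LPS, by log2 fold changes of -2.44 and -2.06. With 1 library left out, Irf7 lay between -3.10, without replicate 1 of SF3a1 siRNA with LPS, and -2.04, without replicate 1 of control siRNA with LPS, and passed each time.

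**Figure D5:**
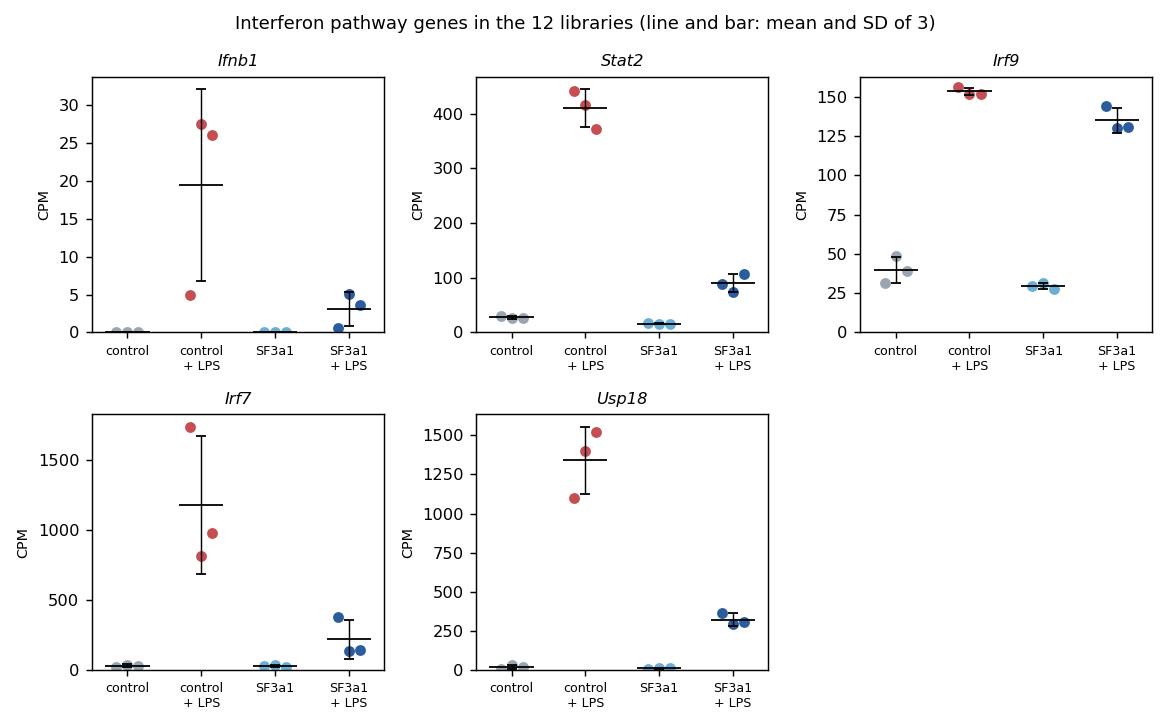
Level in CPM of 5 genes of the interferon pathway in the 12 libraries, with a point for each library and lines for the mean and SD of each group of 3. The LPS points of SF3a1 siRNA lie below those of control siRNA for Stat2, Irf7 and Usp18, overlap for Ifnb1, and for Irf9 lie between 130 and 144 CPM beside 152 to 156 CPM.

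For comparison, 25 inflammatory genes known as targets of NF-κB, the other arm of the LPS response, were set beside the members, and 24 of them were tested. All 24 rose with LPS and control siRNA, as did 38 of the 39 members, beside 13.8% of all genes. Without LPS, 12 of the 24 rose with SF3a1 siRNA and 0 fell, beside 13.7% and 20.1% of all genes. The median log2 fold change was 0.90, where the members had a median of -0.32. Of the 24, Il6 had 0 counts without LPS under both siRNAs. Il1a had 1 count with control and 2 with SF3a1 siRNA, and Csf3 had 5 and 2. Their SF3a1 effects without LPS could not be measured. None of them was among the 12 calls, but the median includes them. With LPS, 11 fell and 2 rose with SF3a1 siRNA (median -0.65), beside 20.4% and 18.4% of all genes, where the members had a median of -1.67. With the replicate block 16 rose without LPS (20.7% of all genes in that fit), and with LPS 13 fell and 3 rose (26.3% and 24.6%). In the interaction 7 LPS effects were smaller and 0 larger (median -1.20, members -1.50), beside 1.94% and 1.54% of all genes. The count became 16 with the replicate block (5.18% of all genes smaller and 6.54% larger in that fit), 14 without the filter on low counts and 11 by DESeq2, all smaller. The median includes Il6, Il1a and Csf3, whose interactions had no firm base level without LPS. They did not pass in the full fit or with the block. Tnf was at 671, 1870 and 1800 CPM with control siRNA and LPS and at 424, 1390 and 898 CPM with SF3a1 siRNA and LPS, and Nfkbia, the inhibitor of NF-κB, at 523, 590 and 656 CPM and at 396, 671 and 534 CPM. Both pairs of groups overlapped, with adjusted p of 0.239 and 0.611 in edgeR's quasi-likelihood test, and Tnf passed as lower without replicate 1 of control siRNA with LPS or replicate 2 of SF3a1 siRNA with LPS. Both were higher with SF3a1 siRNA without LPS, by log2 fold changes of 1.17 ± 0.42 for Tnf and 1.07 ± 0.19 for Nfkbia (adjusted p = 0.0561 and 0.00122, edgeR's quasi-likelihood test), the call of Tnf being lost without replicates 2 or 3 of control siRNA or replicates 1 or 3 of SF3a1 siRNA. The LPS effect was smaller with SF3a1 siRNA for Nfkbia (interaction -1.21, adjusted p = 0.0348), and for Tnf the interaction of -1.85 passed with the block (adjusted p = 0.0475, against 0.146 without it, edgeR's quasi-likelihood test) and without either of the libraries just named for it with LPS. Il1b, at 2390, 2660 and 4200 CPM and at 762, 1380 and 776 CPM, was lower (log2 -1.66). The largest fall of the 24 with LPS was that of Il6, to 7.54% of the control siRNA level (log2 -3.73, adjusted p = 3.21e-04, edgeR's quasi-likelihood test). Among the members the largest fall was -3.59, in Ms4a4c. Nfkbiz, Il1a and Ccl4 were also lower with SF3a1 siRNA and LPS (log2 -2.04, -1.725 and -1.53). The 2 that rose were Icam1 and Ier3 (log2 0.73 and 1.01).

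Some library measures moved with the siRNA. Of all gene counts, mitochondrial genes took 0.552 to 0.76% in the control siRNA libraries and 0.908 to 1.526% in those of SF3a1 siRNA, and reads outside annotated genes were 17.75 to 19.83% and 18.2 to 27.2%. Lck, the most abundant T cell marker, was at 13.7, 10.0 and 12.6 CPM with control siRNA and LPS and 6.33, 4.78 and 3.13 CPM with SF3a1 siRNA and LPS. The part of these differences in the changes of the members was not tested. The replicates also differed for the members as a group: replicate 1 of control siRNA was the lowest of its 3 libraries in 27 of 39 members (69.2%, against 41.3% of all genes), and replicate 2 of SF3a1 siRNA with LPS was the lowest in 22 of 39 (56.4%, against 38.0%). Replicate 1 of SF3a1 siRNA without LPS was the lowest in 23 of 38 members (60.5%, against 41.0%).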

How the data were processed

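RNA from RAW264.7 cells was analysed in 12 libraries, grouped by the sample labels, with 3 libraries in each of 4 groups. Single-end reads of polyadenylated RNA came from an Ion Proton sequencer. The authors discarded reads shorter than 30 nt, aligned the others to mm10 with GSNAP and used only unique alignments. From these the authors made the deposited counts, which are raw, with htseq-count for genes and with the script of DEXSeq for exon bins, on Ensembl gene models. The strand setting is not given in the sources used here. Reads outside genes stayed out of library sizes.

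Gene counts were fitted over all 12 libraries with edgeR 4.0.16 (TMM, filterByExpr, quasi-likelihood) in R 4.3.3, and p-values were adjusted over the 14983 genes that passed the filter at a false discovery rate of 0.1. All 39 members passed it. Fold changes compare with the group named second. Exon bin counts of 11 libraries were tested for usage with edgeR's diffSpliceDGE, and 3 members whose bins were counted in a unit joined with another gene were left out of it. Gene structures come from GENCODE vM21 (mm10) for all 39 members, and bin positions for the 28 whose rebuilt bins matched in number. Both tests were also run on simulated data, and the outcome is not given here. Samples with the same replicate number deviated together from their group means (correlations of 0.14 to 0.66 over 18 pairs, median 0.43, against -0.59 to 0.42, median -0.36, over 36 pairs with different numbers), so the number was also fitted as a block. Deviations within a group of 3 sum to 0, so the negative median follows from the positive one and is not separate evidence. No 2 replicates agreed within sampling noise.

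Values in every library are given for the 4 called members with the largest rise and the 4 with the largest fall in each comparison, with a mean of at least 1 CPM, and the 6 with the smallest adjusted p in the interaction. They are also given for the 2 highest and 2 lowest per kilobase after LPS with control siRNA. An item of the pathway list is counted in it but not reported here. Gene symbols were matched with GENCODE, and the members, lists, roles and tests were chosen with earlier results of these data known. DESeq2 1.42.0 and limma 3.58.1 served as alternatives, with other scaling and filters, a stricter rate, the replicate block and each library left out.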

Additional observations from a re-analysis of the deposited data

Results flagged for a closer look

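A difference between the 2 siRNAs in their response to LPS was what singled out 20 members, those in which edgeR's quasi-likelihood test of the interaction passed. In each of them the rise with LPS was smaller after SF3a1 siRNA, and the values below are the log2 difference between the LPS effects. Among the nuclear body genes the difference was -1.816 for Daxx, -1.932 for Pml and -1.828 for Sp100. In the Schlafen cluster it was -2.814 for Slfn5, -2.002 for Slfn4, -2.707 for Slfn1 and -1.454 for Slfn8, and these 4 were not tested against each other. The PARP genes that passed were at -1.542 for Parp10, -1.381 for Parp12 and -1.663 for Parp14. For the ISG15 enzymes it was -1.568 for Uba7 and -1.744 for Herc6, and for the ligase Trim30a it was -1.844. Antiviral effectors gave -2.402 for Isg20, -2.299 for Cmpk2 and -1.682 for Bst2. The others were Epsti1 at -1.938, Lgals3bp at -1.702, Nmi at -1.433 and Tor3a at -1.092, the smallest of the 20.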

How the results depend on the processing

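The 38 calls of LPS with control siRNA, the 36 of SF3a1 siRNA with LPS and the 36 of LPS with SF3a1 siRNA changed little, at 38 to 39, 34 to 37 and 33 to 36 members over all alternatives, the 37th being the rise of Ifi27l2a with the block. The 14 calls of SF3a1 siRNA without LPS were 9 with DESeq2 size factors, 7 at a false discovery rate of 0.05 and 6 (without replicate 2 of control siRNA) to 14 with 1 library left out. The 20 interactions were 31 with the replicate block, 30 without the low count filter, 27 by DESeq2, 15 at the stricter rate and 16 to 22 with 1 library left out. Beyond the calls named with the results, the block changed none at the gene level among members. In exon usage, LPS with control siRNA gave 1 member by limma and at the stricter rate, SF3a1 siRNA without LPS gave 1 by limma, and SF3a1 siRNA with LPS gave 0 at the stricter rate and 3 with the block. LPS with SF3a1 siRNA gave 2 with the block. With 1 library left out these ran from 1 to 2, 1 to 3, 0 to 2 and 1 to 1. Directions turned only in genes that did not pass, and the cause was not tested. Without LPS, the SF3a1 effect of Trim30a was 0.04485 with DESeq2 size factors and 0.04441 by DESeq2, and that of Nmi was 0.05415, 0.05411, 0.008397 with the block and 0.01178 with only the groups compared. With 1 library left out these log2 effects ran from -0.121 to 0.367 for Trim30a, -0.1301 to 0.2275 for Nmi, -0.9784 to 0.4146 for Rsad2, -1.232 to 0.01119 for Cmpk2, -0.1481 to 0.4356 for Bst2, -0.2693 to 0.05565 for Slfn8, -0.2282 to 0.2801 for Helz2 and -0.05514 to 0.183 for Uba7. With LPS they ran from -0.0415 to 0.3565 for Trim25 and -0.3401 to 0.03242 for Nfkbia. The interaction ran from -0.6531 to 0.4407 for Mx2, -0.02304 to 0.6223 for Rtp4, -0.6749 to 0.09714 for Ifi27l2a and -3.286 to 0.4802 for Ms4a4c, whose other libraries without LPS then held 0 counts with SF3a1 siRNA. The response element was found in 20.0% of the members with a promoter in the last 150 bases before the start (1.85% of all genes) and in 36.7% with the shorter search (9.76%). Members below 1 CPM without LPS rest on few counts, and with 3 libraries a group, calls near the threshold turn on single libraries.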
